A study of Homo sapiens with 16 samples.

Results

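The genes described here were 10 ligands and receptors of the tumor necrosis factor (TNF) superfamily, namely the ligands TNF, LTA, LTB, TNFSF10, TNFSF13, TNFSF13B and TNFSF14 and the receptors TNFRSF1A, TNFRSF1B and CD40. They were picked by symbol through their Ensembl identifiers, 10 of the 60676 genes in the count table. RNA sequencing was performed on THP-1 cells, a line from a patient with acute monocytic leukemia, in 8 groups of 2 libraries. Cells carried a short hairpin RNA against UHRF1 (shUHRF1), DNMT1 (shDNMT1) or DNMT3B (shDNMT3B), or the control hairpin (shNC). Hairpins were delivered by lentivirus, so that shNC cells were also transduced. Each line was kept for 48 h with PMA, a phorbol ester, at 100 ng/ml, or with the solvent DMSO. PMA turns these monocytic cells into adherent macrophage-like cells. The study asked how loss of DNA methylation regulators alters this differentiation and the inflammatory state of the resulting cells. The group names stand for the library labels, and nothing in the sources states that the 2 libraries of a group came from separate cultures, so that p-values measure only the spread between these libraries.

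Ligands of the TNF superfamily are mostly membrane proteins that act as trimers, some of them after being cleaved from the cell surface. They bind trimeric receptors that either recruit TRAF adaptors and activate NF-kappaB and MAP kinases or, through a death domain, can start apoptosis. In monocytes and macrophages the family is known for TNF itself, a principal inflammatory cytokine, for TNFSF13B (BAFF) and TNFSF13 (APRIL), survival factors for B lineage cells, for TNFSF10 (TRAIL), a death ligand induced by interferon, and for CD40, the receptor through which T cells activate myeloid cells.

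Short stretches of the promoters are shown first, to give the letters of 3 motifs of inducible transcription factors where members hold them. RefSeq promoter windows (GRCh38.p14, 250 bases before to 50 after a transcription start) were matched for 9 of the 10 genes. The core of the interferon-stimulated response element (ISRE), searched as GAAANNGAAA on both strands, lies in windows of 4 members. In the 250 bases before the start alone it lies in 3 members and in 3.02% of all windows. The match of TNFSF14 lies after the start. Capitals mark the match, read 5′ to 3′ on the strand of the gene, so that the match on the other strand appears as its reverse complement.
TNFSF10 (chr3:172523598-172523627, minus strand): gaggagcttcTTTCAGTTTCcctcctttcc
TNFSF13B (chr13:108269637-108269666, plus strand): tacaaaaactGAAAGTGAAAtgaggaagac
TNFSF14 (chr19:6670112-6670141, minus strand): tgttgagcaaTTTCGGTTTCctctgaggtt
TNFRSF1B (chr1:12166971-12167000, plus strand): gggcgcgggcTTTCGCTTTCagtcgagggc

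All 4 of these genes rose after PMA in shNC, as did 7 of the 9 members tested and 28.4% of all genes. Among the 7 were TNF and TNFRSF1A, whose windows held no ISRE core. The NF-kappaB consensus (searched on both strands and named here by its name alone) was found in the windows of LTA, LTB, TNFSF13 and TNFSF14. The 2 members with lower values after PMA, LTB and TNFSF13, each held an NF-kappaB match, and 1 match of each is marked by capitals below. The fall of LTB did not pass the test in shNC (edgeR adjusted p = 0.135). TNFSF14, with the same consensus, rose there (log2 fold change 4.28). TNFSF14 also held the only AP-1 match among the members, searched as TGANTCA on both strands, and it is shown because AP-1 is the classical phorbol ester factor.
LTB (chr6:31582492-31582521, minus strand): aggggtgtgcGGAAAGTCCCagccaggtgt
TNFSF13 (chr17:7558131-7558160, plus strand): tcctcctgcgGGGAAATCCCttcctggctg
TNFSF14 (chr19:6670310-6670336, minus strand): acttgccaccTGAGTCAcattttcaga

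Among all 35116 windows of the same length, 3.57% held the ISRE core, 7.71% the AP-1 motif and 11.3% the NF-kappaB consensus. Counted by gene, as for the members, 4.38%, 9.37% and 13.3% of 27305 genes held the ISRE core, the AP-1 motif and the NF-kappaB consensus in a window, beside 4, 1 and 4 of the 9 members. In LTA and TNFSF14 neighboring NF-kappaB matches overlap one another, no match of one motif overlaps another motif, and neither TNF nor TNFRSF1A held any of the 3 motifs in its window. A match describes letters in a window and says nothing about binding in these cells.

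The libraries held between 13883556 and 23151864 counts, and those numbered 1 were deeper than those numbered 2 in every group. Mitochondrial genes took 3.92% to 19.51% of counts in PMA libraries and 9.86% to 28.96% in DMSO libraries, with more in library 1 than in library 2 of every group. After PMA their share was 19.51% and 9.35% in shDNMT3B, against 10.35% and 4.76% in shNC, and its part in the PMA and line differences below was not tested. The 8 monocyte and macrophage markers summed to 2360 to 3240 CPM (counts scaled to a common library size) in PMA libraries and to 521 to 691 CPM in DMSO libraries, whereas the T cell markers stayed at or below 0.631 CPM with CD3D at 0 counts in all 16 libraries. PAX5 and NCAM1 carried most of the B cell (6.41 to 32.8 CPM) and NK cell (34.6 to 185 CPM) sums, and KLRD1 had 1 count in all. The B cell sum was highest in shDNMT1 PMA (26.2 and 32.8 CPM, against 12.2 and 14.2 CPM in shNC PMA) and the NK cell sum in shDNMT3B PMA (185 and 158 CPM, against 72.6 and 69.1 CPM in shNC PMA), and the part of either in the line differences below was not tested. Hemoglobin genes summed to 488 CPM in library 1 of shNC DMSO and to at most 2.23 CPM elsewhere. Of 2 genes used to check the treatment names, RGS1 had 9503 to 13182 reads in PMA libraries and 0 to 8 in DMSO libraries, and MMP9 had 67509 to 454136 reads in PMA libraries and 9 to 215 in DMSO libraries. Hairpin targets did not follow the labels clearly, and none differed in DMSO by the test (edgeR adjusted p from 0.212 to 0.787). UHRF1 averaged 81.6 CPM in shUHRF1 and 105 CPM in shNC in DMSO, and 10.9 against 6.03 CPM in PMA, called higher with the replicate block described below (adjusted p = 3.8e-04). DNMT1 averaged 96.9 CPM in shDNMT1 and 115 CPM in shNC in DMSO, and 91.9 against 67.5 CPM in PMA, where the block called it higher in the libraries labelled shDNMT1 (log2 fold change 0.46, adjusted p = 0.00418) and the fit without it did not. DNMT3B averaged 6.63 CPM in shDNMT3B and 9.23 CPM in shNC in DMSO, and in PMA it was higher in the libraries labelled shDNMT3B, with 2.97 against 1.42 CPM (edgeR adjusted p = 0.00688). Each direction given below for a hairpin line is therefore a direction for libraries so labelled.

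**Figure D1:**
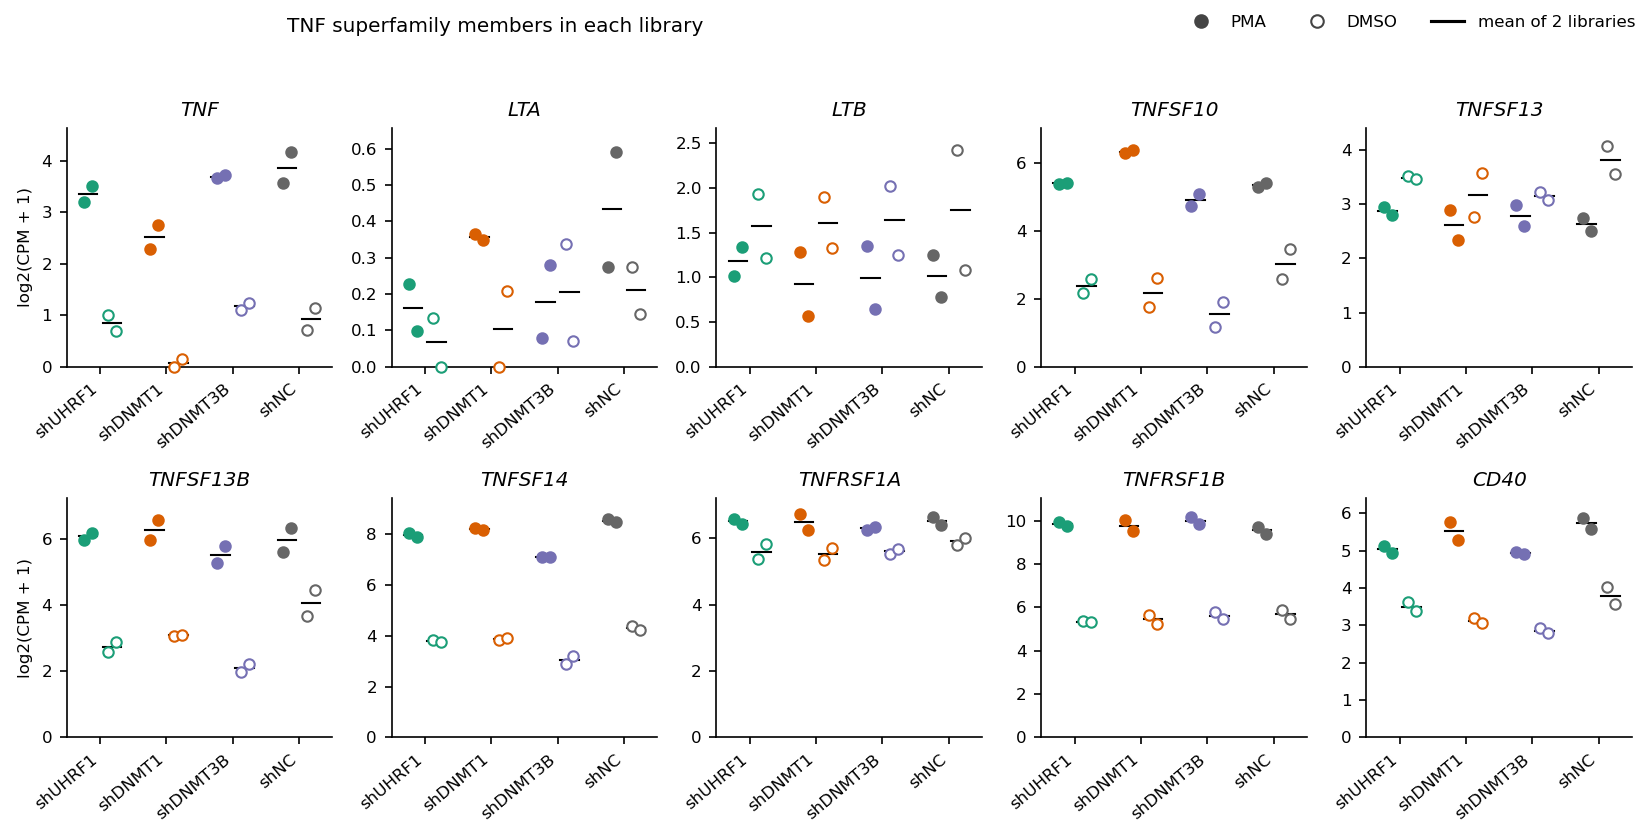
Values of the 10 genes in each library as log2(CPM + 1), with the 4 lines on the horizontal axis, PMA (filled) to the left of DMSO (open) and bars at the mean of 2 libraries. For TNF, TNFSF10, TNFSF13B, TNFSF14, TNFRSF1A, TNFRSF1B and CD40 the PMA points lie above the DMSO points in all 4 lines, and the panels differ in scale.

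In shNC cells, PMA raised 7 of the 9 members that passed the filter on low counts and lowered 1. This was tested with edgeR's quasi-likelihood test, with p-values adjusted by Benjamini and Hochberg over all 16503 genes tested and a call at an adjusted p under 0.05. Of all genes tested, 28.4% rose and 26.0% fell in the same comparison. The same 7 members were called higher after PMA in shUHRF1, shDNMT1 and shDNMT3B cells, where 29.4%, 28.6% and 25.2% of genes were called higher. No member was called lower in these lines, where 25.5%, 24.1% and 19.7% of genes were called lower. The median log2 fold change of the 9 members was 3.28 in shUHRF1, 3.39 in shDNMT1, 3.22 in shDNMT3B and 2.01 in shNC, beside -0.01, 0.01, 0.02 and 0.00 over all genes. Libraries with the same number deviated together, and with that number as a block LTB and TNFSF13 were also called lower (2 members in shNC against 32.6% of genes, 1 in shUHRF1 against 32.5%, 2 in shDNMT1 against 31.0% and 1 in shDNMT3B against 27.5%). Each of the 22 member values below that the block added to the calls reached an adjusted p of 0.241 or more under some other alternative. In bulk RNA, fewer cells of a type and less RNA per cell cannot be told apart.

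TNF, the founding cytokine of the family, had 10.9 and 17.0 CPM in shNC PMA libraries, against 0.631 and 1.22 CPM in shNC DMSO libraries. Both PMA libraries lay far above both DMSO libraries, and the log2 fold change was 3.90 ± 0.41 (edgeR adjusted p = 4.9e-06). The error here, below and in the figures is an approximate SE from the fit. It is the size of the log2 fold change divided by the square root of its F statistic, and it is imprecise near a fold change of 0. In shUHRF1 the values were 8.15 and 10.4 CPM after PMA and 1.02 and 0.618 CPM in DMSO, a log2 fold change of 3.49 ± 0.41 (edgeR adjusted p = 1.3e-05). In shDNMT3B they were 11.7 and 12.2 CPM after PMA and 1.16 and 1.37 CPM in DMSO, a log2 fold change of 3.22 ± 0.40 (edgeR adjusted p = 2.6e-05). The groups did not overlap in any of these lines, and after PMA shDNMT3B lay within and shUHRF1 below the range of shNC.

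In shDNMT1 cells TNF was low under both treatments. The PMA libraries held 81 and 84 reads (3.87 and 5.75 CPM), against 0 and 2 reads in the DMSO libraries. From these counts the PMA level was 87.4 times the DMSO level, with an exact 95% interval of 23.8 to 728 that covers counting error only. After PMA, both shDNMT1 libraries lay below both shNC libraries, with a log2 fold change of -1.54 ± 0.35 (edgeR adjusted p = 0.0116). The call was lost without shNC PMA library 2 (-1.19) or without shDNMT1 PMA library 1 (-1.28), and adjusted p ranged from 2.84e-05 to 0.107 over 11 alternatives.

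In DMSO, 2 TNF reads in the shDNMT1 libraries stood against 35 in the shNC libraries, a ratio of 0.0574 (exact 95% interval of 0.00669 to 0.223). The quasi-likelihood test called TNF lower in shDNMT1 DMSO (edgeR adjusted p = 0.00942), and the call was lost without shNC DMSO library 2 (-3.41), without shDNMT1 DMSO library 1 (-3.07), or when only these libraries were fitted, with adjusted p from 3.69e-07 to 0.178 over 11 alternatives. The PMA response of TNF in shDNMT1 exceeded that in shNC by 2.42 ± 0.89 on the log2 scale without passing the test (edgeR adjusted p = 0.147), and it passed with the replicate block (adjusted p = 0.0403). This difference was 1.53 without shDNMT1 DMSO library 1 and 5.52 without shDNMT1 DMSO library 2, and adjusted p ranged from 0.0403 to 0.482 over 14 alternatives. TNF did not pass in shUHRF1 or shDNMT3B in either treatment, with log2 differences between -0.59 and 0.45 from shNC.

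LTA and LTB encode the lymphotoxins, which are typical of lymphocytes and lie on either side of TNF on chromosome 6 (LTA 31572054 to 31574324, TNF 31575565 to 31578336, LTB 31580525 to 31582522, hg38). LTA stayed at 0 to 7 reads in every library and did not pass the filter, so that no difference was tested. Its reads summed to 11 in shNC PMA and 6 in shNC DMSO, which cannot show a difference at this depth.

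LTB had 1.37 and 0.722 CPM in shNC PMA libraries, against 4.37 and 1.12 CPM in shNC DMSO libraries. The groups overlapped, and library 1 was higher than library 2 in DMSO in all 4 lines. Log2 fold changes of LTB ran between -1.36 (shNC) and -0.71 (shUHRF1) and none passed the test, with edgeR adjusted p from 0.135 to 0.433. With the replicate block LTB was called lower after PMA in shNC (-1.30, adjusted p = 0.0104), shDNMT1 (-1.16, adjusted p = 0.0226) and shDNMT3B (-1.07, adjusted p = 0.0379). The shNC value was -0.07 without shNC DMSO library 1 and -2.03, called, without shNC DMSO library 2.

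TNFSF10 (TRAIL), which triggers apoptosis through the death receptors TNFRSF10A and TNFRSF10B, had its highest levels in shDNMT1 cells after PMA. In this line it had 78.2 and 82.1 CPM after PMA, against 2.39 and 5.09 CPM in DMSO, a log2 fold change of 4.41 ± 0.41 (edgeR adjusted p = 1.7e-06). In shNC it had 38.0 and 41.3 CPM after PMA, against 5.0 and 9.99 CPM in DMSO, a log2 fold change of 2.4 ± 0.38 (edgeR adjusted p = 1.5e-04). The shDNMT1 libraries were thus the highest of all libraries after PMA, while in DMSO they overlapped with shNC at a log2 fold change of -1.0 that was not called.

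The response of TNFSF10 in shDNMT1 exceeded that in shNC by 2.01 ± 0.53 on the log2 scale (edgeR adjusted p = 0.0379). Adjusted p ranged from 4.48e-07 to 0.171 over 14 alternatives, and the call was lost without shNC DMSO library 2 (1.43), shDNMT1 DMSO library 1 (1.57), shNC PMA library 1 (1.95) or 2 (2.07) or shDNMT1 PMA library 1 (2.04) or 2 (1.98), and when these libraries were fitted alone (2.02). The level after PMA in shDNMT1 was 1.02 ± 0.35 above shNC on the log2 scale (edgeR adjusted p = 0.0722), which passed with the replicate block (adjusted p = 6.4e-04).

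TNFSF10 also rose in shUHRF1, to 40.8 and 41.8 CPM after PMA against 3.53 and 4.95 CPM in DMSO, and in shDNMT3B, to 25.9 and 33.3 CPM after PMA against 1.27 and 2.75 CPM in DMSO. Both shDNMT3B DMSO libraries lay below both shNC DMSO libraries, a log2 fold change of -1.89 ± 0.42 (edgeR adjusted p = 0.0218). This call was lost without shNC DMSO library 2 (-1.31) or shDNMT3B DMSO library 1 (-1.44) or when these libraries were fitted alone (-1.85), and adjusted p ranged from 5.09e-10 to 0.226 over 11 alternatives. The PMA response exceeded that of shNC by 0.88 ± 0.52 on the log2 scale in shUHRF1 (edgeR adjusted p = 0.564) and by 1.47 ± 0.54 in shDNMT3B (edgeR adjusted p = 0.144), and the block called the shDNMT3B value (adjusted p = 0.00778).

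TNFSF13 (APRIL) was the only member called lower after PMA. It had 5.73 and 4.69 CPM in shNC PMA libraries, against 15.8 and 10.8 CPM in shNC DMSO libraries, a log2 fold change of -1.34 ± 0.32 (edgeR adjusted p = 0.00339). The 2 groups did not overlap. In the hairpin lines the log2 fold changes were -0.70 in shUHRF1, -0.66 in shDNMT1 and -0.40 in shDNMT3B, not called, and the replicate block called those in shUHRF1 (adjusted p = 0.0252) and shDNMT1 (adjusted p = 0.0327). PMA levels lay between 4.04 and 6.91 CPM in all 4 lines, and the DMSO means were 7.89 to 10.3 CPM in the hairpin lines and 13.3 ± 3.53 CPM in shNC (SD, n = 2). The TNFSF12-TNFSF13 readthrough gene, with 272 counts in the 16 libraries, shares exons with TNFSF13 on the same strand. How reads in shared exons were counted is not given. Values of TNFSF13, its level per kilobase included, are therefore uncertain by an amount that the 272 counts do not show.

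TNFSF13B (BAFF), the survival factor of B cells that myeloid cells secrete, rose after PMA in all 4 lines, and in DMSO it was lower in shUHRF1 and shDNMT3B. It had 47.9 and 80.0 CPM in shNC PMA libraries, against 11.8 and 20.9 CPM in shNC DMSO libraries, a log2 fold change of 1.97 ± 0.32 (edgeR adjusted p = 2.1e-04). In DMSO it had 5.03 and 6.42 CPM in shUHRF1, 7.39 and 7.59 CPM in shDNMT1 and 2.96 and 3.66 CPM in shDNMT3B, against 11.8 and 20.9 CPM in shNC. All 6 hairpin libraries lay below both shNC libraries.

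Against shNC DMSO, TNFSF13B fell by 2.30 on the log2 scale in shDNMT3B (SE 0.35; edgeR adjusted p = 0.00219) and by 1.51 in shUHRF1 (SE 0.33; edgeR adjusted p = 0.0483). In shDNMT1 the log2 fold change was -1.12 ± 0.33 (edgeR adjusted p = 0.0876), called with the replicate block (adjusted p = 9.8e-05). The shUHRF1 call did not hold without shNC DMSO library 2 (-1.04), shUHRF1 DMSO library 1 (-1.35) or library 2 (-1.70), nor with upper-quartile factors (-1.48), nor when these libraries were fitted alone (-1.47), and adjusted p ranged from 9.32e-08 to 0.454 over 11 alternatives. The shDNMT3B call was lost only when those libraries were fitted alone (-2.26), with adjusted p up to 0.0819.

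After PMA, TNFSF13B reached 62.6 and 72.6 CPM in shUHRF1, 61.7 and 95.7 CPM in shDNMT1 and 37.8 and 54.0 CPM in shDNMT3B, against 47.9 and 80.0 CPM in shNC. These ranges overlapped with shNC PMA in every line, and none of the 3 differences passed the test (log2 fold changes between -0.48 and 0.30). With the replicate block the shDNMT3B value was called lower (-0.46, adjusted p = 0.0148). It was -0.06 without shNC PMA library 2, -0.24 without shDNMT3B PMA library 1, -0.76 without shDNMT3B PMA library 2 and -0.80 without shNC PMA library 1, none of them called, and adjusted p ranged from 0.0148 to 0.939 over 11 alternatives. The PMA response exceeded that of shNC by 1.82 ± 0.46 on the log2 scale in shDNMT3B (edgeR adjusted p = 0.0334), by 1.59 ± 0.45 in shUHRF1 (edgeR adjusted p = 0.153) and by 1.42 ± 0.45 in shDNMT1 (edgeR adjusted p = 0.0872). The block called all 3, with adjusted p of 6.0e-06, 6.8e-05 and 7.4e-05 in that order. The shDNMT3B call was lost without shNC DMSO library 2 (1.35), shDNMT3B DMSO library 1 (1.68) or 2 (1.98), shNC PMA library 1 (1.5) or shDNMT3B PMA library 2 (1.54), and when these libraries were fitted alone (1.82), and adjusted p ranged from 4e-06 to 0.124 over 14 alternatives.

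TNFSF14 (LIGHT), the ligand of TNFRSF14 and of the lymphotoxin beta receptor, rose most evenly. It had 386 and 354 CPM in shNC PMA libraries, against 20.1 and 18.0 CPM in shNC DMSO libraries. The log2 fold change was 4.28 in shUHRF1, 4.42 in shDNMT1 and 4.22 in shDNMT3B, and it was 4.28 ± 0.17 in shNC (edgeR adjusted p = 1.2e-09). The differences between these responses and that of shNC were 0.00, 0.14 and -0.06, with an SE of 0.18 to 0.22, and none passed the test.

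The level of TNFSF14 did differ between lines. After PMA it had 137 and 138 CPM in shDNMT3B, against 386 and 354 CPM in shNC, a log2 fold change of -1.43 ± 0.15 (edgeR adjusted p = 6.0e-05) that was called under all 11 alternatives. In DMSO it had 6.45 and 8.25 CPM in shDNMT3B, against 20.1 and 18.0 CPM in shNC, a log2 fold change of -1.37 ± 0.16 (edgeR adjusted p = 2.4e-04) that was lost only when these libraries were fitted alone (-1.33, adjusted p = 0.0991, with adjusted p from 9.43e-14 over 11 alternatives). The shDNMT3B libraries thus lay below the shNC libraries under both treatments. In shUHRF1, TNFSF14 had 263 and 237 CPM after PMA and 13.3 and 12.4 CPM in DMSO, all below shNC under the same treatment, with log2 fold changes of -0.56 and -0.57 that did not pass the test and were called with the replicate block (adjusted p = 0.00193 and 0.00863). In shDNMT1 the log2 fold changes were -0.34 after PMA and -0.47 in DMSO, and these too were called with the block and not without it (adjusted p = 0.0321 and 0.0223).

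TNFRSF1A, the death domain receptor of TNF found on most cells, had the smallest rise of the 7 members called higher. It had 98.5 and 82.9 CPM in shNC PMA libraries, against 55.2 and 63.8 CPM in shNC DMSO libraries, a log2 fold change of 0.61 ± 0.21 (edgeR adjusted p = 0.0242). Its log2 fold change was 0.91 in shUHRF1, 0.98 in shDNMT1 and 0.70 in shDNMT3B, all called. With upper-quartile factors, which moved the median PMA fold change of all genes to between -0.312 and -0.219, the rise was not called in shNC (0.33) and shDNMT3B (0.46). The shNC call was also lost without shNC DMSO library 1 (0.51) or shNC PMA library 1 (0.48), and the shDNMT3B call without shDNMT3B DMSO library 1 (0.58) or shDNMT3B PMA library 2 (0.65). Adjusted p ranged from 0.00453 to 0.181 in shNC and from 0.00195 to 0.112 in shDNMT3B over 11 alternatives each.

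TNFRSF1B, the second TNF receptor, which lacks a death domain and is enriched on leukocytes, had the steepest rise of the 3 member receptors. It had 852 and 678 CPM in shNC PMA libraries, against 58.0 and 43.8 CPM in shNC DMSO libraries, a log2 fold change of 3.91 ± 0.27 (edgeR adjusted p = 9.8e-08). It reached 997 and 871 CPM in shUHRF1, 1050 and 731 CPM in shDNMT1 and 1150 and 917 CPM in shDNMT3B after PMA, against 852 and 678 CPM in shNC. Both libraries of shUHRF1 and of shDNMT3B lay above those of shNC, and the replicate block called shDNMT3B higher (0.44, adjusted p = 0.00805), while the fit without it did not (edgeR adjusted p = 0.228). The response in shUHRF1 exceeded that in shNC by 0.65 ± 0.34 on the log2 scale, called with the block and not without it (adjusted p = 0.0314).

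CD40, which T cells engage through CD40LG (a gene with 0 reads in every library), had 58.0 and 47.1 CPM in shNC PMA libraries, against 15.2 and 10.9 CPM in shNC DMSO libraries. After PMA the log2 fold change was 1.62 in shUHRF1, 2.56 in shDNMT1 and 2.25 in shDNMT3B, and 2.01 ± 0.21 in shNC (edgeR adjusted p = 5.0e-06). Like TNFSF14, CD40 was lower in shDNMT3B under both treatments. It had 30.3 and 29.0 CPM in shDNMT3B after PMA, against 58.0 and 47.1 CPM in shNC, a log2 fold change of -0.83 ± 0.21 (edgeR adjusted p = 0.0139). In DMSO it had 6.55 and 5.90 CPM in shDNMT3B, against 15.2 and 10.9 CPM in shNC, a log2 fold change of -1.07 ± 0.22 (edgeR adjusted p = 0.0143).

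Both CD40 calls depended on single libraries. The PMA call was lost without shNC PMA library 1 (-0.67) or either shDNMT3B PMA library (-0.86 and -0.80), with adjusted p from 2.97e-05 to 0.115 over 11 alternatives. The DMSO call was lost without shNC DMSO library 1 (-0.81), the library with hemoglobin reads, or either shDNMT3B DMSO library (-1.15 and -0.99), or when these libraries were fitted alone (-1.03), with adjusted p from 2.84e-05 to 0.194 over 11 alternatives. In shUHRF1, CD40 had 34.2 and 29.5 CPM after PMA, also below both shNC libraries, and was called with the block (-0.72, adjusted p = 5.0e-04). In shDNMT1 DMSO it was called with the block and not without it (-0.74, adjusted p = 0.00143).

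**Figure D2:**
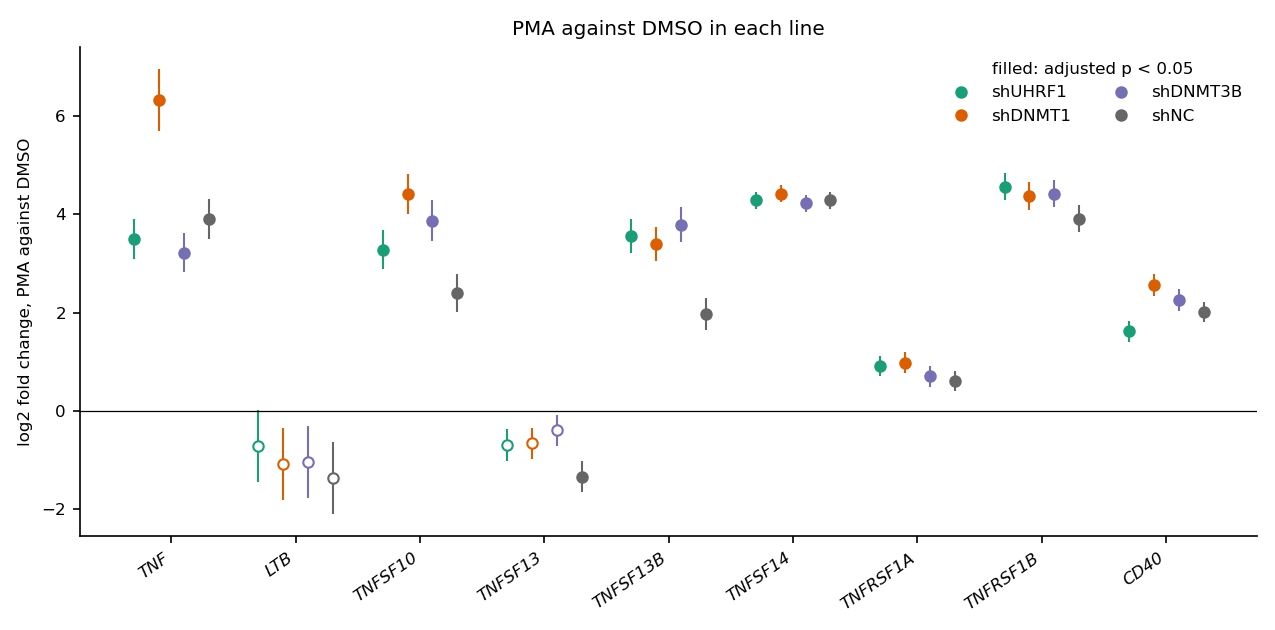
Log2 fold change of PMA against DMSO for the 9 members tested, with 1 point per line and error bars of 1 SE from the edgeR fit (filled where the adjusted p was under 0.05). TNF, TNFSF10, TNFSF13B, TNFSF14, TNFRSF1A, TNFRSF1B and CD40 lie above 0 in every line, TNF in shDNMT1 stands highest at a fitted 6.32 that rests on 2 DMSO reads, and TNFSF13 is filled in shNC only.

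Across the hairpin lines, members that differed from shNC were almost all lower. All 3 lines were set against the same shNC libraries, so that their values are given side by side and are not independent of one another. In DMSO, 1 member was called lower in shUHRF1 (TNFSF13B), where 1.15% of all genes were, 1 in shDNMT1 (TNF), where 3.39% were, and 4 in shDNMT3B (TNFSF10, TNFSF13B, TNFSF14 and CD40), where 2.89% were. No member was called higher in DMSO, where 0.17% of all genes were in shUHRF1, 0.57% in shDNMT1 and 1.62% in shDNMT3B. Calls over all genes leaned lower in DMSO too, with 12.9%, 14.4% and 35.9% of them higher in these lines. The median log2 fold change of the 9 members in DMSO was -0.37 in shUHRF1, -0.67 in shDNMT1 and -0.75 in shDNMT3B, beside -0.04, -0.04 and -0.02 over all genes. With the replicate block the counts were 2 in shUHRF1 (6.87% of genes), 5 in shDNMT1 (9.23%) and 5 in shDNMT3B (11.4%), among them TNFSF13 in shDNMT3B (-0.74, adjusted p = 0.0473) and TNFSF10 in shDNMT1 (-0.99, adjusted p = 0.0173). The TNFSF13 value was -0.45 without shNC DMSO library 1, and the TNFSF10 value was -0.41 without shNC DMSO library 2, -0.56 without shDNMT1 DMSO library 1 and -1.65 without shDNMT1 DMSO library 2, none of them called.

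After PMA, fewer members were called. None was called lower in shUHRF1, where 1.65% of genes were, 1 in shDNMT1 (TNF; 6.35% of genes) and 2 in shDNMT3B (TNFSF14 and CD40; 9.05% of genes). The 0 in shUHRF1 compares with 2 members at an unadjusted p under 0.05 in edgeR, 2 calls by DESeq2 and 2 with the replicate block. The block called 2 members lower in shUHRF1 (6.88% of genes), 2 in shDNMT1 (15.1%) and 3 in shDNMT3B (19.5%), and it called 1 member higher in shDNMT1 (TNFSF10; 16.3% of genes) and 1 in shDNMT3B (TNFRSF1B; 20.5%). The median log2 fold change of the 9 members after PMA was 0.06 in shUHRF1, -0.01 in shDNMT1 and -0.22 in shDNMT3B, beside 0.02, 0.01 and 0.04 over all genes.

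For the difference between PMA responses, no member was called in shUHRF1, where 0.739% of genes had a larger response than in shNC, 1 was called in shDNMT1 (TNFSF10; 5.64% of genes) and 1 in shDNMT3B (TNFSF13B; 5.08%). In shUHRF1, 1 member had an unadjusted p under 0.05 in edgeR and DESeq2 called 1. The block called 2 members in shUHRF1 (6.02% of genes), 3 in shDNMT1 (12.8%) and 2 in shDNMT3B (12.6%), each time with the larger response in the hairpin line. Calls over all genes leaned the same way. Without the block, 87.1% of them in shUHRF1, 84.0% in shDNMT1 and 75.0% in shDNMT3B had this direction.

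**Figure D3:**
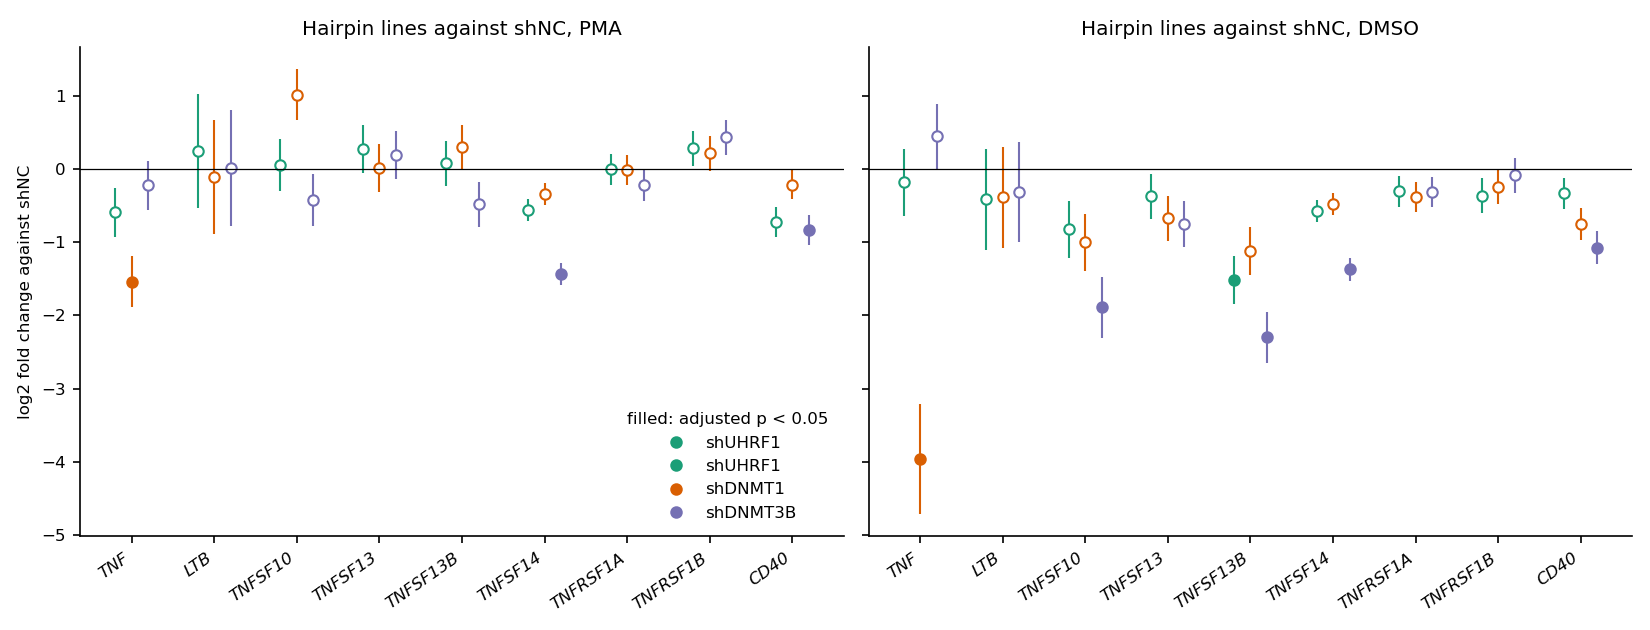
Log2 fold change of each hairpin line against shNC after PMA (left) and in DMSO (right) for the 9 members tested, with error bars of 1 SE and filled points where the edgeR adjusted p was under 0.05. In DMSO nearly all points lie below 0, the exception being TNF in shDNMT3B at 0.45, and after PMA the points of TNFSF10 and TNFSF13B spread on both sides of 0 while TNFSF14 stays below it in all 3 lines.

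Levels between genes were compared per kilobase of exon. In shNC PMA cells TNFRSF1B stood first with 202 CPM per kilobase, followed by TNFSF14 with 77.4. TNFRSF1A (21.6) and TNFSF13B (20.9) overlapped, as did CD40 (9.36) and TNF (8.31), with TNFSF10 (11.5) just above them and TNFSF13 (2.29), LTB (0.68) and LTA (0.206) last. In shNC DMSO cells TNFRSF1A (14.2) and TNFRSF1B (13.5) overlapped at the top and TNF (0.552) stood last but 1, above LTA (0.0912). TNFRSF1A thus had about the same level as TNFRSF1B before PMA and a small part of it after PMA.

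Over the 8 group means of log2 CPM, TNFSF10, TNFSF13B, TNFSF14, TNFRSF1A and CD40 had pairwise Pearson r of 0.97 to 0.99, and LTB and TNFSF13 had r = 0.89. All points share the PMA contrast and the libraries, so that these values describe the groups and carry no test. The tested genes nearest in pattern were ZNF790, PCDHGA12 and MFGE8 for TNF (r from 0.989), TPI1, USP51 and SELPLG for LTB (from 0.994), and PTPN6, NCSTN and CMTR1 for TNFSF10 (from 0.994). They were SF3B2, VANGL1 and GSTM4 for TNFSF13 (from 0.975), SPATS2L, SCAMP2 and DHRSX for TNFSF13B (from 0.989), and SGTB, YIPF6 and CD109 for TNFSF14 (from 0.998). Among the receptors they were SLCO4A1-AS2, PLEKHA4 and GRINA for TNFRSF1A (from 0.996), SH3BGRL3, NRSN1 and CTSD for TNFRSF1B (from 0.998), and CCDC6, CCR1 and LPIN1 for CD40 (from 0.99).

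Of the 11 other ligands of the superfamily, 6 could be tested, and in shNC 1 rose and 2 fell after PMA. Over all genes 28.4% rose and 26.0% fell in that comparison, and these shares hold for the lists below as well. TNFSF15 (TL1A) rose to 32.5 and 33.2 CPM in PMA libraries, against 0.421 and 0.691 CPM in DMSO libraries (log2 fold change 5.87, edgeR adjusted p = 1.0e-08). CD70, the ligand of CD27, had 38.0 and 29.1 CPM in PMA libraries, against 237 and 135 CPM in DMSO libraries (log2 fold change -2.47, edgeR adjusted p = 3.6e-04), and TNFSF11 (RANKL) fell by 2.42, with 5 and 6 reads in PMA libraries against 50 and 20 reads in DMSO libraries. After PMA, TNFSF15 was lower in shDNMT1, with 5.83 and 6.57 CPM, than in shNC (log2 fold change -2.41, edgeR adjusted p = 3.7e-05), as TNF was. It was the 1 ligand of this list called in a hairpin line, and the block called 1 higher and 2 lower in shDNMT1 and 2 lower in shDNMT3B after PMA. With the block 16.3% of all genes were higher and 15.1% lower in shDNMT1, and 19.5% lower in shDNMT3B.

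Of 26 other receptors, 16 could be tested. In shNC, 11 rose and 2 fell after PMA, with a median log2 fold change of 1.34 beside 0.00 over all genes. The largest rises were those of TNFRSF12A (4.69), the TWEAK receptor, and TNFRSF11A (4.40), known as RANK, the receptor of TNFSF11 on osteoclast precursors, while TNFRSF9 was called on 12 and 6 reads in PMA libraries against 1 and 2 reads in DMSO libraries. The 2 that fell were TNFRSF13C, the BAFF receptor, with 1 read in each PMA library against 26 and 13 reads in DMSO libraries, and FAS, with 0 and 1 reads in PMA libraries against 7 and 16 reads in DMSO libraries. In DMSO, TNFRSF21, a death domain receptor, was lower in shDNMT1 (-1.26) and shDNMT3B (-1.02), and TNFRSF10A, a TRAIL receptor, in shDNMT1 (-0.79).

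After PMA, the 2 TRAIL death receptors were lower in shDNMT1 cells, in which TNFSF10 itself had its highest values, with log2 fold changes of -1.20 for TNFRSF10B (edgeR adjusted p = 2.0e-04) and -0.70 for TNFRSF10A (edgeR adjusted p = 0.0274). In shDNMT1 the response of TNFRSF10B was smaller than in shNC (-0.94, edgeR adjusted p = 0.0184) and that of TNFRSF21 larger (1.38, edgeR adjusted p = 0.0203). In shDNMT3B after PMA, TNFRSF10A (-0.62), TNFRSF11A (-1.19) and TNFRSF21 (-1.04) were lower. FAS was called higher in shDNMT1 (22 and 8 reads) and shDNMT3B (8 and 15 reads) than in shNC (0 and 1 reads) after PMA. For the 16 receptors, 1 higher and 2 lower in shDNMT1 and 1 higher and 3 lower in shDNMT3B after PMA became 1 and 5 and 1 and 6 with the block. Over all genes 8.5% were higher and 6.35% lower in shDNMT1, and 11.3% and 9.05% in shDNMT3B. With the block these shares were 16.3% and 15.1%, and 20.5% and 19.5%. In DMSO the block called 2 higher and 2 lower in shUHRF1 (0 and 0 without it), 4 lower in shDNMT1 (2) and 1 higher and 2 lower in shDNMT3B (0 and 1). Of all genes it called 6.87%, 9.23% and 11.4% lower in these lines in DMSO, and the shares it called higher are not given. Without the block 0.17%, 0.57% and 1.62% of all genes were higher there.

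Of 30 genes of receptor-proximal signaling, all were tested, and 19 rose and 1 fell after PMA in shNC (median 1.01), or 23 and 2 with the block. With the block 32.6% of all genes fell there, and the share that rose is not given. TRAF1, an NF-kappaB-induced adaptor that binds TNF receptors, rose by 4.25, MAP3K14, the kinase of the noncanonical NF-kappaB pathway, by 2.65, and TAB2, which links TRAF adaptors to TAK1, by 2.29. SHARPIN, a subunit of the linear ubiquitin ligase, fell by 0.68. After PMA, TRAF1 was lower in shUHRF1 (-1.08) and shDNMT3B (-1.02), and CYLD, the deubiquitinase that limits TNF receptor signaling, was lower in shUHRF1 (-0.64), shDNMT1 (-0.60) and shDNMT3B (-1.02).

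In shDNMT1 after PMA, 1 gene of this list was higher, MLKL (0.74), the effector of necroptosis, and 4 were lower, CYLD, TNIP1 (-1.08), TRAF3 (-0.69) and TRAF4 (-0.79). Over all genes 8.5% were higher and 6.35% lower in that comparison, and the block called 4 of the 30 higher and 8 lower, against 16.3% and 15.1% of all genes. In shDNMT3B after PMA, 1 was higher, TRAF5 (2.90), and 7 were lower, CYLD, TRAF1, BIRC3 (-1.05), CFLAR (-0.82), TNIP1 (-0.76), TRAF3 (-0.57) and MLKL (-0.54), while 11.3% of all genes were higher and 9.05% lower. There the block called 2 of the 30 higher and 11 lower, against 20.5% and 19.5% of all genes. In shUHRF1 after PMA it called 3 higher and 6 lower (0 and 2 without it, against 2.04% and 1.65% of all genes). With the block 6.88% of all genes were lower there, and the share that was higher is not given. In DMSO, RBCK1 (-0.71) and RNF31 (-0.68), both of the linear ubiquitin ligase, were lower in shDNMT1, and CYLD (-0.74) and MLKL (-1.01) in shDNMT3B. The PMA responses of CASP10 (0.82) and MLKL (1.02) were larger and those of TNIP1 (-0.87) and TRAF4 (-1.08) smaller in shDNMT1 than in shNC, and that of TRAF5 (2.51) was larger in shDNMT3B. The block called 6 larger and 4 smaller responses in shDNMT1 and 1 larger and 6 smaller in shDNMT3B. With the block 12.8% of all genes had a larger response in shDNMT1 and 12.6% in shDNMT3B, and the shares with a smaller one are not given. Without it, 5.64% of all genes had a larger and 1.07% a smaller response in shDNMT1, and 5.08% and 1.7% in shDNMT3B.

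Of 16 genes of ligand processing and TNF mRNA control, 13 rose and 2 fell after PMA in shNC (median 1.36). The largest rises were those of ZFP36L1 (8.03), of the family of proteins that destabilize AU-rich mRNAs, RHBDF2 (4.35), which carries the TNF sheddase ADAM17 to the cell surface, and TIMP3 (3.29), the inhibitor of that sheddase. SPPL2B (-0.89), an intramembrane protease that cleaves TNF, and ELAVL1 (-0.81), which stabilizes AU-rich mRNAs, fell. TIMP3 was lower than in shNC in all 3 hairpin lines in DMSO (-1.58 in shUHRF1, -1.18 in shDNMT1 and -1.71 in shDNMT3B) and in shDNMT1 (-0.79) and shDNMT3B (-1.84) after PMA.

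In shDNMT1 cells, ZFP36L1 was lower in DMSO (-1.98) and after PMA (-1.14), and ZFP36L2 (0.83) and SPPL2B (0.67) were higher after PMA. In shDNMT3B cells, ADAM10, a sheddase of several ligands, was lower in DMSO (-0.78) and after PMA (-0.65), SPPL2A (-0.79) and ZC3H12A (-0.60) were lower after PMA, and ZFP36 (0.76) and SPPL2B (0.63) were higher. LITAF (-0.63) was lower in shUHRF1 after PMA. Of these 16 genes, 2 were higher and 4 lower in shDNMT3B after PMA, and 3 and 7 with the block. Over all genes 11.3% were higher and 9.05% lower there, and 20.5% and 19.5% with the block.

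Of 18 TNF-responsive genes, 17 were tested, and 16 rose after PMA in shNC (median 7.53). CXCL8, the neutrophil chemokine, rose by 10.57 on the log2 scale, IER3 by 10.54 and CXCL3, on 7 DMSO reads, by 10.12. After PMA, 11 of the 17 were lower and 1 was higher in shDNMT1 than in shNC (median -1.54), and 9 were lower and none higher in shDNMT3B (median -0.79). Over all genes 6.35% were lower and 8.5% higher in shDNMT1, and 9.05% and 11.3% in shDNMT3B. The block called 15 lower and 2 higher in shDNMT1, where 15.1% and 16.3% of all genes were, and 12 lower and 1 higher in shDNMT3B, where 19.5% and 20.5% were. In shUHRF1 the median was 0.04, and the block called 2 higher and 2 lower (0 and 0 without it, against 2.04% and 1.65% of all genes). With the block 6.88% of all genes were lower there, and the share that was higher is not given. Many factors besides TNF induce these genes, and PMA is one of them, so that the list does not measure TNF activity.

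The genes of this list lowest relative to shNC in shDNMT1 after PMA were CXCL8, with 245 and 209 CPM in shDNMT1 against 5050 and 4050 CPM in shNC (log2 fold change -4.32, edgeR adjusted p = 1.0e-05), CXCL3 (-4.17), PTGS2 (-3.92), CCL20 (-3.83), CXCL2 (-3.75) and CXCL1 (-3.67). TNFAIP6 (-1.97), IER3 (-1.92), NFKBIA (-1.54), TNFAIP8 (-1.01) and TNFAIP2 (-0.91) were lower as well, and IRF1 was higher (0.83). In shDNMT3B after PMA the lower genes were PTGS2 (-2.73), CXCL3 (-2.46), CXCL8 (-2.46), CXCL1 (-2.25), CCL2 (-2.22), CXCL2 (-2.13), TNFAIP6 (-1.83), TNFAIP8 (-0.90) and TNFAIP2 (-0.79), while the log2 fold change of TNF itself was -0.22 there and not called.

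In shDNMT1, 8 of these genes had a smaller response than in shNC, among them CXCL8 (-3.32), PTGS2 (-3.29), IER3 (-3.21), CXCL2 (-2.78), CXCL1 (-2.62) and NFKBIA (-1.14), and IRF1 had a larger one (1.02). In shDNMT3B, 5 had a smaller response, TNFAIP6 (-2.96, on 3 shNC DMSO reads), IER3 (-2.79), PTGS2 (-2.36), CXCL2 (-2.10) and TNFAIP2 (-0.89). With the block 3 responses were larger and 9 smaller in shDNMT1, and 1 larger and 8 smaller in shDNMT3B. Over all genes, 12.8% of responses were larger in shDNMT1 and 12.6% in shDNMT3B with the block, and the shares that were smaller with it are not given. Without the block, 5.64% of responses over all genes were larger and 1.07% smaller in shDNMT1, and 5.08% and 1.7% in shDNMT3B. In DMSO, CCL2 was lower in shDNMT1 (-2.39) and shDNMT3B (-3.05), ICAM1 in shDNMT1 (-1.26) and TNFAIP8 in shDNMT3B (-0.76), and IER3 was higher in shDNMT3B (2.53).

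**Figure D4:**
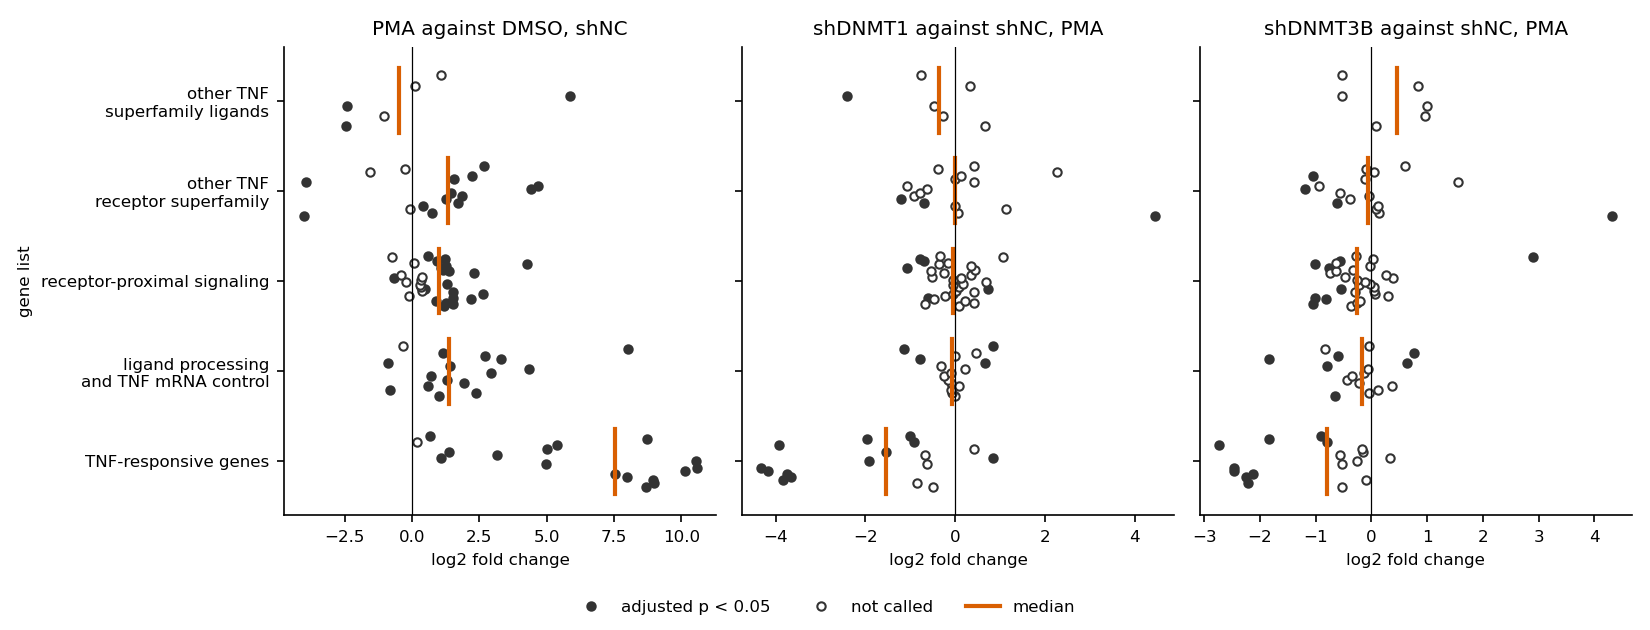
Log2 fold change of each tested gene of 5 pathway lists for PMA against DMSO in shNC (left), shDNMT1 against shNC after PMA (middle) and shDNMT3B against shNC after PMA (right), filled where the edgeR adjusted p was under 0.05, with the list median in orange and a scale of its own in each panel. The TNF-responsive genes have medians of 7.53, -1.54 and -0.79 in the 3 panels, and the other 4 lists have medians from -0.37 to 0.45 in the hairpin panels.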

How the data were processed

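Libraries were made from poly(A) RNA with a stranded kit. Per the labels and the processing notes, the authors aligned reads with STAR 2.4.0b to hg38 and counted them with HTSeq 0.6.1p1, and Cufflinks 2.1.1 and edgeR are also named. The annotation release and the strand setting of the counting are not given in the sources used here. The deposited values were raw counts per Ensembl gene in 16 columns, all of them used. In 12 of 16 records the column name given by the description disagrees with the title, so columns were assigned to groups by their own name. Symbols, hg38 coordinates and exon lengths came from GENCODE 44, which named 60357 of the 60676 genes.

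Counts were tested in edgeR 4.0.16 (R 4.3.3), with filterByExpr at its minimum of 10 counts, TMM scaling, a robust quasi-likelihood fit of 8 groups over all 16 libraries and 13 contrasts. CPM were scaled by TMM. Libraries numbered alike deviated together in 28 of 28 pairs of groups (r from 0.22 to 0.508), so a replicate block was fitted and its value is given where it changed the call of a member, and for most counts of the pathway lists. The numbers come from the column names. The fit without the block was tested on simulated counts of independent libraries, for shUHRF1 DMSO against shNC DMSO only. The block fit, the PMA contrasts and the response differences were not tested in this way. Alternatives were DESeq2 1.42.0, other scaling factors, no filter, iterative normalization with an exact test, a fit of the compared libraries alone and each library left out. Named genes were all members, 5 label checks, the 3 genes nearest each tested member in pattern and, from 5 pathway lists, up to 3 called rises and 3 called falls after PMA in shNC and every gene called in a hairpin comparison. Members and lists were chosen with earlier results of these data known. SOD2 was not matched to the table.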

Additional observations from a re-analysis of the deposited data

Results flagged for a closer look

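The PMA response of TNFSF10 in shDNMT1 differed from that in shNC by 2.01 on the log2 scale in edgeR's test of the difference itself (adjusted p = 0.0379). After PMA, TNFSF10 had 78.2 and 82.1 CPM in shDNMT1 against 38.0 and 41.3 CPM in shNC (log2 fold change 1.02). In DMSO, TNFSF10 had 2.39 and 5.09 CPM in shDNMT1 against 5.0 and 9.99 CPM in shNC (log2 fold change -1.0). The difference thus came from a higher level after PMA and a lower level in DMSO, neither called without the block. The PMA response of TNFSF13B in shDNMT3B differed from that in shNC by 1.82 (adjusted p = 0.0334), with DMSO values of 2.96 and 3.66 CPM in shDNMT3B against 11.8 and 20.9 CPM in shNC, and overlapping values after PMA. Both calls were lost under several of the alternatives, as given above. With 2 libraries per group, no group was large enough to be searched for single outlying libraries.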

How the results depend on the processing

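Direction was checked for the 62 values of single members called with or without the block. Over the alternatives run, none of them changed direction where the main fit or the alternative called it. Changes of direction between values that were not called were not checked. For PMA against DMSO the number of members called stayed within 1.5 times of the main number in all 4 lines, and leaving out 1 library gave 7 to 9 in shNC, 7 in shUHRF1, 7 to 8 in shDNMT1 and 6 to 7 in shDNMT3B. Comparisons of lines moved more. With the replicate block the number of members called was 2 in shUHRF1 DMSO (1 without it), 5 in shDNMT1 DMSO (1), 2 in shUHRF1 PMA (0), 3 in shDNMT1 PMA (1) and 4 in shDNMT3B PMA (2), and for the difference in PMA response 2 in shUHRF1 (0), 3 in shDNMT1 (1) and 2 in shDNMT3B (1). For members, the block changed no other call than those given beside the results, while many genes of the pathway lists were called with it and not without it. Of the 22 values of single members called with it and not without it, 16 were also called by another alternative, and over all alternatives the highest adjusted p of each lay between 0.241 and 0.957. Without the filter there were 2 in shUHRF1 DMSO, 4 in shDNMT1 DMSO and 2 in shDNMT1 PMA, and 1, 3 and 2 for the responses of shUHRF1, shDNMT1 and shDNMT3B. DESeq2 called 2 in shUHRF1 DMSO, 3 in shDNMT1 DMSO, 2 in shUHRF1 PMA and 2 in shDNMT1 PMA, and 1 and 2 for the responses of shUHRF1 and shDNMT1. Iterative normalization with the exact test called 1 in shUHRF1 PMA and 2 in shDNMT1 PMA, and upper-quartile factors called 0 in shUHRF1 DMSO. A fit of the compared libraries alone, which has fewer samples, called 0 in each DMSO comparison of lines, 2 in shDNMT1 PMA, and 0 for the responses of shDNMT1 and shDNMT3B.

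Leaving out 1 library gave 0 to 1 members in shUHRF1 DMSO, 0 to 2 in shDNMT1 DMSO, 2 to 3 in shDNMT3B DMSO, 0 in shUHRF1 PMA, 0 to 1 in shDNMT1 PMA and 1 to 2 in shDNMT3B PMA, and for responses 0 in shUHRF1, 0 to 2 in shDNMT1 and 0 to 1 in shDNMT3B. DESeq2 size factors kept the call of 62 of 62 values of single members. Upper-quartile factors moved the median of all genes after PMA to between -0.312 and -0.219. They moved the share of calls that were higher after PMA to 39.7% in shNC (52.2% with TMM), 39.8% in shUHRF1 (53.5%), 41.6% in shDNMT1 (54.3%) and 42.1% in shDNMT3B (56.1%), and that of shDNMT3B against shNC to 48.3% in DMSO (35.9%) and 69.6% after PMA (55.5%), where the median moved to 0.168. With 2 libraries per group and few reads of TNF, LTA and LTB in DMSO, small differences of these genes were not detectable.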
